A study of Mus musculus with 9 samples.

Results

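Phosphoinositide 3-kinase (PI3K) signalling genes were examined in RNA sequencing of CD8+ T cells from mouse spleens. The 9 genes were chosen by name, with earlier results of these data known. Irs2 encodes an insulin receptor substrate, and Pik3cd, Pik3r1 and Pik3r5 encode a catalytic and 2 regulatory subunits of PI3K. Pik3ip1 encodes a PI3K inhibitor, Inpp5d and Inpp4b lipid phosphatases, and Akt1 and Akt2 kinases activated by the pathway. All 9 were among the 18188 genes listed per library and among the 10540 that passed the filter on low values (4 or more libraries with 1 TPM or more; TPM is a share of the library corrected for gene length). The series held 5 libraries of wild-type (WT) cells and 4 in which the gene of RIG-I, a cytosolic sensor of viral RNA, was knocked out (Rig1 KO), and the comparison asks which transcripts differ between them. Neither group is described as treated, and the strain, age, type of deletion, way of purifying the cells and number of animals are not stated in the labels. The p-values therefore measure the spread between these libraries, which may be technical.

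PI3K sits at the inner face of the plasma membrane and phosphorylates the lipid PIP2 to PIP3. Adaptors such as IRS2, once phosphorylated on tyrosine, bind the p85 regulatory subunit and bring the kinase to activated receptors, whereas p101 couples a PI3K of leukocytes to G protein-coupled receptors. PIP3 recruits AKT, which promotes growth and survival and keeps FOXO transcription factors out of the nucleus, and phosphatases that remove phosphates from PIP3 or from its products shut the signal down. In T cells the pathway is driven by the antigen receptor, costimulation and cytokines. Transcript levels do not report the activity of these enzymes, and neither lipids nor phosphorylated proteins were measured here.

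The libraries held 15496262 to 17893558 reads over genes, recovered from the deposited values as described with the processing. The targeted gene, listed as Ddx58, had 63.2 to 67.4 TPM across WT libraries and 30.6 to 35.2 TPM across Rig1 KO libraries (log2 fold change -0.95, SE 0.055, adjusted p = 4.91e-07). A total over the gene does not show which part of the transcript remained. Of 6 listed markers of CD8+ T cells, 6 were higher in Rig1 KO, with summed levels of 3330 to 3881 TPM (WT) and 4657 to 5221 TPM (Rig1 KO). Genes listed as markers of other cells moved with genotype too, and which cells their transcripts came from was not tested. B cell markers (8 of 9 tested were lower, 0 higher) summed over 11 genes to 167 to 1206 TPM among WT libraries, highest in WT 5 and next in WT 4, and to 92.2 to 203 TPM among Rig1 KO libraries. Natural killer markers (6 of 8 higher, 0 lower) summed to 213 to 343 and 570 to 627 TPM. The largest part of these sums was Eomes, with 116 to 155 TPM in WT and 276 to 317 TPM in Rig1 KO. Whether Eomes transcripts came from natural killer cells or from the CD8+ T cells cannot be told in bulk samples. Tyrobp and Fcer1g overlapped between the groups. Basophil and mast cell markers (7 of 8 higher, 1 lower) summed to 20.8 to 64.9 and 225 to 428 TPM. Myeloid markers (1 higher and 2 lower of 11) summed to 696 to 1704 and 1101 to 1335 TPM, and the 3 listed CD4+ T cell markers (0 higher, 1 lower) to 19.5 to 66.0 and 20.3 to 23.4 TPM. For comparison, 33.5% of all tested genes were higher and 12.2% lower. No marker was at 0 in every library; Fcer1a was listed at 0 in WT 2 and WT 5. Their part in the results below was not tested, except that B cell transcripts were used as a covariate. That covariate itself differed between the groups, so a fit with it cannot fully separate genotype from B cell transcripts. In such bulk samples fewer cells of a type and less RNA per cell cannot be told apart.

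Of the 9 genes, 3 rose in Rig1 KO (Pik3ip1, Pik3r5 and Pik3r1), 1 fell (Irs2) and 5 did not pass the test (Pik3cd, Inpp5d, Inpp4b, Akt1 and Akt2). Over all tested genes 45.7% were called, 33.5% higher and 12.2% lower, so 4 calls among 9 genes is close to the background. The groups did not overlap for the 4 called genes, against 38.1% of all tested genes. The median log2 fold change of the 9 was 0.13, and that of all tested genes was also 0.13. This general shift depended on how libraries were scaled. Median ratio scaling sets the typical gene to no change. With it, the median of all tested genes was 0.01, with 2491 genes higher (23.7%) and 2266 lower (21.5%) in place of 3526 and 1291. Under it 2 of the 9 genes were higher (Pik3ip1 and Pik3r5) and 3 lower (Irs2, Pik3cd and Inpp4b).

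**Figure D1:**
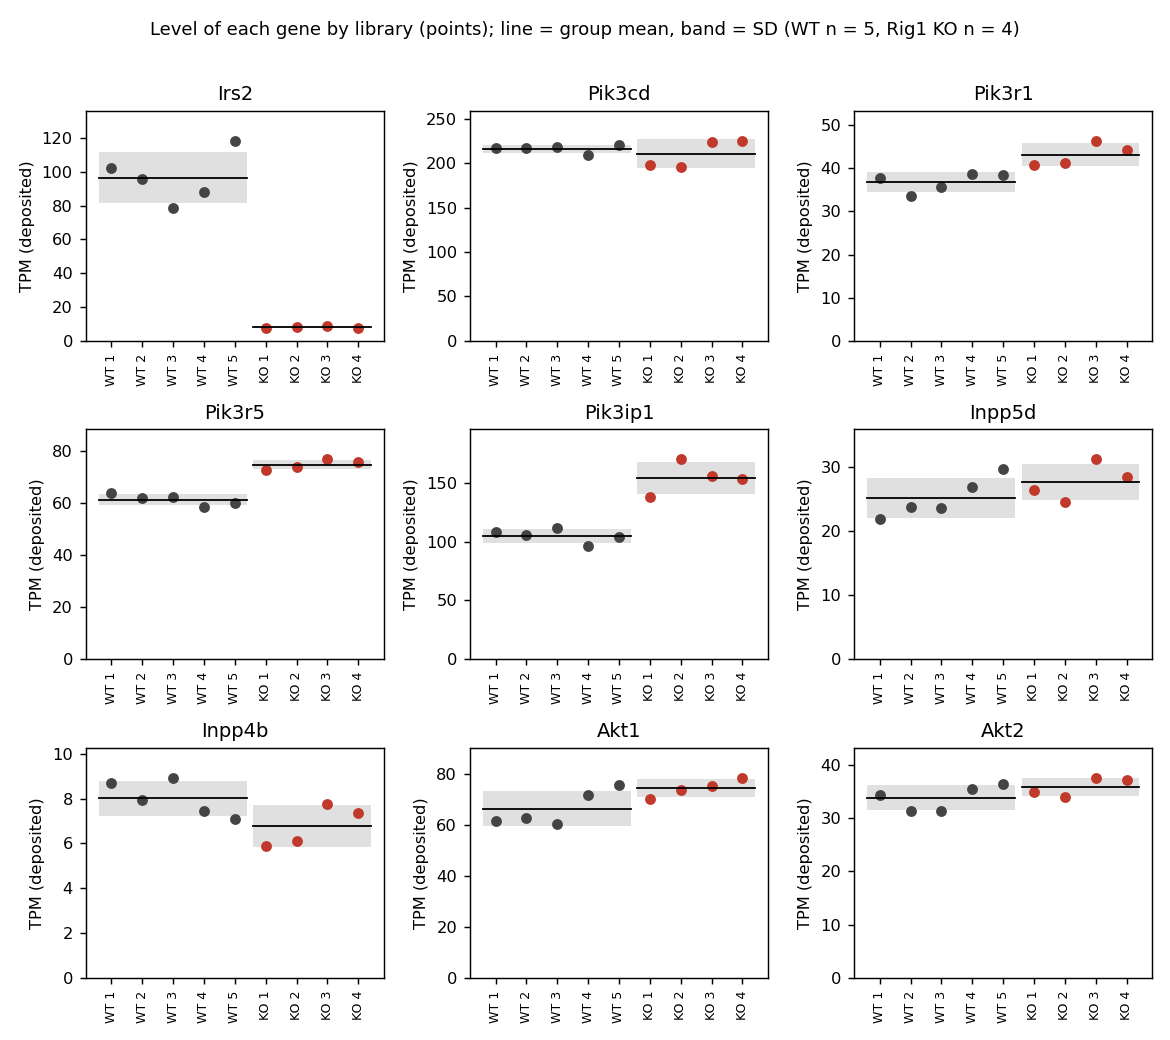
Deposited TPM (y axis, from 0) of each of the 9 genes in each library (x axis; KO stands for Rig1 KO). Points are libraries, lines group means and bands 1 SD (WT n = 5, Rig1 KO n = 4). The groups are apart for Irs2, Pik3r1, Pik3r5 and Pik3ip1 and overlap for the other 5 genes.

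Irs2, the adaptor that links insulin and cytokine receptors to PI3K, fell more than any other of the 9 genes. Its level was 102, 95.6, 78.3, 88.2 and 118 TPM in WT 1 to WT 5 and 7.66, 8.18, 8.58 and 7.25 TPM in Rig1 KO 1 to 4. Every Rig1 KO library was far below the lowest WT library, and the 4 lay close together (coefficient of variation 7.32%, against 15.6% in WT). The mean fell 12.2-fold, from 96.5 ± 15.1 TPM (SD, n = 5) to 7.92 ± 0.580 TPM (SD, n = 4), to 8.20% of WT. On the log2 scale the difference was -3.44 (SE 0.11, adjusted p = 4.30e-09), the tenth most negative of all tested genes (rank 10 of 10540). The values rest on 2799 to 3933 reads per library in WT and 225 to 292 in Rig1 KO. The fall was of like size under median ratio scaling (-3.55) and without WT 4 and WT 5 (-3.38). WT 4 and WT 5 were the WT libraries highest in B cell, myeloid, natural killer and CD4+ T cell markers. The log2 difference was -3.08 with the mean B cell marker level as a covariate.

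The other listed insulin receptor substrate genes, Irs1 and Irs3, were below the filter and were not tested. Irs1 averaged 0.0706 TPM (WT) and 0.0375 TPM (Rig1 KO), and Irs3 averaged 0.574 and 0.620 TPM; Irs4 was not analysed here. Among tested genes, those whose profile over the 9 libraries was most like that of Irs2 were Per1, a circadian clock gene (Pearson r = 0.999), Atf4, a stress response transcription factor (r = 0.998), and Mafk, a small Maf factor (r = 0.997). Per1 had 239 ± 27.1 TPM in WT (SD, n = 5) and 39.5 ± 2.94 TPM in Rig1 KO (SD, n = 4). Atf4 had 1134 ± 43.3 and 523.7 ± 10.2 TPM, and Mafk 213 ± 18.7 and 75.8 ± 1.68 TPM. These correlations describe profiles that share the split between the genotypes and the same libraries.

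Because Irs2 fell the most and Pik3ip1 rose the most of the 9 genes, the sequences before their transcription starts are shown. They are the 250 bases upstream of the start in RefSeq (build GRCm38.p6), 5′ to 3′ on the gene's strand. They were searched on both strands for a FOXO core (GTAAACA), the core of the cAMP response element (TGACG) and an AP-1 site (TGANTCA), with matches in capitals. Of 32851 windows of this length in the table, 3.17%, 17.8% and 6.75% held these motifs. The Irs2 window (chr8:11008930-11009179, minus strand) was 72.8% G or C, and that of Pik3ip1 (chr11:3330481-3330730, plus strand) 53.6%. Neither held any of the 3 motifs, which says only that these letters are not in this window.
Irs2: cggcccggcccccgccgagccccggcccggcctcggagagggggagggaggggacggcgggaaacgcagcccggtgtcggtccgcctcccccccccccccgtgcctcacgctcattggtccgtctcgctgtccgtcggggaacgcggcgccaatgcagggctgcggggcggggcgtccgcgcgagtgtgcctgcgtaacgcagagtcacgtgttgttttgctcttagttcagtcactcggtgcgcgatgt
Pik3ip1: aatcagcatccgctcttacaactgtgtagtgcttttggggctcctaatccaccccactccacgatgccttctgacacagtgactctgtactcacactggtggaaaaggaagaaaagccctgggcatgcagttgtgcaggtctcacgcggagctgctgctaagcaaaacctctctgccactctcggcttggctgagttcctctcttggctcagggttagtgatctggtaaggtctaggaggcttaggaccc

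All 9 genes had at least 1 window, 16 in all, and 5 windows held 1 match each, so no matches overlapped. These were a FOXO core 161 bases before a start of Akt1 and cAMP response element cores 199 bases before that of Inpp5d, 44 and 66 bases before 2 starts of Akt2 and 35 bases before the second start of Pik3r1. Pik3r1 is the only called gene with a match, so that window is shown with the match in capitals, on the opposite strand (chr13:101692631-101692880, minus strand, 42.4% G or C).
Pik3r1, second start: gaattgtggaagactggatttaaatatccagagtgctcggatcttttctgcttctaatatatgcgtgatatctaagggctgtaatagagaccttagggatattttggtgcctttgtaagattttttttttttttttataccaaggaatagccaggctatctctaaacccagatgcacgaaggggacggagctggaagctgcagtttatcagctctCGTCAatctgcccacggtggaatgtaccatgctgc

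Pik3ip1 encodes a membrane protein that binds PI3K and restrains it in T cells, and its transcript was higher in every Rig1 KO library. The WT libraries 1 to 5 had 108, 105, 111, 96.1 and 104 TPM, and the Rig1 KO libraries 1 to 4 had 137, 169.8, 156 and 153 TPM. The lowest Rig1 KO library was thus above the highest WT library, and Rig1 KO 2 stood highest. The mean rose by 46.9%, from 105 ± 5.69 TPM (SD, n = 5) to 154 ± 13.3 TPM (SD, n = 4), with a log2 fold change of 0.55 (SE 0.067, adjusted p = 0.000103). Of all tested genes, 88.4% had a lower fold change. Median ratio scaling gave 0.42 (adjusted p = 0.00151), and the B cell marker covariate gave 0.48 (adjusted p = 0.0155). Rig1 KO 2 also had the highest summed basophil and mast cell markers, 428 TPM against 225 to 241 TPM in the other Rig1 KO libraries; without that library the rise was 0.50. Ccdc166 (r = 0.979), Mrpl44, a mitochondrial ribosomal protein gene (r = 0.974), and Paqr7, a membrane progestin receptor gene (r = 0.971), had the most similar profiles over the 9 libraries. Their means were 24.5 ± 3.25 and 44.3 ± 3.23 TPM for Ccdc166, 23.3 ± 1.35 and 37.5 ± 2.22 TPM for Mrpl44, and 23.5 ± 2.22 and 40.3 ± 2.05 TPM for Paqr7, WT first.

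The catalytic subunit p110δ, the main class I PI3K catalytic subunit of lymphocytes, is encoded by Pik3cd. Its transcript had 217, 217, 219, 209 and 221 TPM in WT 1 to 5 and 198, 196, 224 and 225 TPM in Rig1 KO 1 to 4. In TPM as deposited, Rig1 KO 1 and 2 (mean 197 TPM) lay below every WT library. Rig1 KO 3 and 4 (mean 225 TPM) lay above every WT library. Median ratio scaling divides each library by a factor, and these pairs differed in it. The factor was 1.009 and 1.003 in Rig1 KO 1 and 2, and 1.116 and 1.098 in Rig1 KO 3 and 4. WT libraries had factors of 0.925 to 0.997. How far the split between the pairs reflects these factors was not tested. The group means were 217 ± 4.58 TPM (SD, n = 5) and 211 ± 16.0 TPM (SD, n = 4), with a log2 fold change of -0.04 (95% confidence interval -0.16 to 0.08, adjusted p = 0.581). The estimate was 0.05 without Rig1 KO 1 and 2 (adjusted p = 0.351) and -0.13 without Rig1 KO 3 and 4 (adjusted p = 0.0479). With median ratio scaling it was -0.16 and passed (adjusted p = 0.00957), whereas it was -0.09 with quantile scaling (adjusted p = 0.154).

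Both regulatory subunits rose, by less than Pik3ip1. Pik3r5, which encodes p101, a partner of the G protein-activated p110γ, had 63.8, 61.9, 62.2, 58.3 and 59.8 TPM in WT 1 to 5 and 72.6, 73.9, 76.7 and 75.8 TPM in Rig1 KO 1 to 4. The groups were apart and both were tight. The mean rose by 22.2%, from 61.2 ± 2.14 TPM (SD, n = 5) to 74.7 ± 1.86 TPM (SD, n = 4), with a log2 fold change of 0.29 (SE 0.047, adjusted p = 0.000692) that was 0.16 after median ratio scaling (adjusted p = 0.0271). The catalytic partner Pik3cg rose from 28.6 ± 1.60 to 35.0 ± 4.31 TPM (log2 fold change 0.27, adjusted p = 0.0194), a call that was lost after median ratio scaling (0.15, adjusted p = 0.0550).

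Pik3r1, which encodes p85α, the subunit that stabilises and inhibits p110 until it binds phosphotyrosine, had 37.8, 33.5, 35.6, 38.7 and 38.5 TPM in WT 1 to 5. The Rig1 KO libraries 1 to 4 had 40.7, 41.4, 46.4 and 44.3 TPM, all above the WT range though only just. The mean rose by 17.2%, from 36.8 ± 2.22 to 43.2 ± 2.64 TPM, with a log2 fold change of 0.22 (SE 0.064, adjusted p = 0.0152). This call did not survive median ratio scaling (0.10, adjusted p = 0.0743) or scaling to common quantiles (0.10, adjusted p = 0.0847). It was also lost without Rig1 KO 3 and 4 (0.15, adjusted p = 0.126), the libraries with the largest median ratio factors.

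Inpp5d encodes SHIP1, a phosphatase of blood cells that removes the 5-phosphate of PIP3, and its transcript did not pass the test. It had 21.9, 23.7, 23.5, 26.8 and 29.7 TPM in WT 1 to 5 and 26.4, 24.5, 31.1 and 28.4 TPM in Rig1 KO 1 to 4. The groups overlapped, and the highest WT libraries were WT 5 and WT 4. Among WT, WT 5 and WT 4 were highest in summed B cell markers (1206 and 537 TPM). They were also highest in myeloid (1704 and 1316 TPM), natural killer (343 and 326 TPM) and CD4+ T cell markers (66.0 and 29.6 TPM). WT 2, with 492 TPM of B cell markers, had only 23.7 TPM of Inpp5d. Which of these cell types, if any, went with Inpp5d was not tested. The means were 25.1 ± 3.12 TPM (SD, n = 5) and 27.6 ± 2.83 TPM (SD, n = 4), a log2 fold change of 0.13 (95% confidence interval -0.08 to 0.35, adjusted p = 0.284). It passed without WT 4 and WT 5 (0.25, adjusted p = 0.0482). It also passed with the B cell marker covariate, which itself differed between the groups (0.43, adjusted p = 0.0318). After median ratio scaling it was 0.01 (adjusted p = 0.901).

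Inpp4b, which encodes a phosphatase acting on PI(3,4)P2, the product of SHIP1, was the only member besides Irs2 with a fold change below -0.2. WT 1 to 5 had 8.68, 7.95, 8.92, 7.44 and 7.08 TPM, and Rig1 KO 1 to 4 had 5.90, 6.10, 7.78 and 7.36 TPM. In TPM as deposited, Rig1 KO 1 and 2 were below every WT library, while Rig1 KO 3 and 4 lay within the WT range. Rig1 KO 3 and 4 also had the larger median ratio factors (1.116 and 1.098, against 1.009 and 1.003 in Rig1 KO 1 and 2). The part of these factors in the difference between the pairs was not tested. The means were 8.01 ± 0.789 and 6.78 ± 0.928 TPM. The log2 fold change of -0.22 (95% confidence interval -0.43 to 0.0047) did not pass (adjusted p = 0.100). It did pass with both rescalings, median ratio (-0.33, adjusted p = 0.0125) and quantile (-0.37, adjusted p = 0.00958), and with values per exon length (-0.28, adjusted p = 0.0248). Without Rig1 KO 1 and 2 it was -0.07 (adjusted p = 0.598), and without Rig1 KO 3 and 4 it was -0.36 (adjusted p = 0.0259).

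The AKT kinases phosphorylate FOXO factors, GSK3 and many other substrates, and neither Akt1 nor Akt2 passed the test. Akt1 had 61.4, 62.8, 60.2, 71.6 and 75.7 TPM in WT 1 to 5 and 70.1, 73.6, 75.5 and 78.5 TPM in Rig1 KO 1 to 4. WT 4 and WT 5 lay within the Rig1 KO range and the other 3 WT libraries below it. The means were 66.3 ± 6.87 and 74.4 ± 3.49 TPM, and the estimated log2 fold change 0.17 (95% confidence interval 0.0008 to 0.34, adjusted p = 0.0927). It passed without WT 5 (0.22, adjusted p = 0.0244) and without WT 4 and WT 5 (0.27, adjusted p = 0.00645). It also passed given the B cell marker covariate, which itself differed between the groups (0.38, adjusted p = 0.0266). With median ratio scaling it was 0.05 (adjusted p = 0.586).

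Akt2 had 34.5, 31.4, 31.4, 35.6 and 36.4 TPM in WT 1 to 5 and 35.0, 34.0, 37.6 and 37.2 TPM in Rig1 KO 1 to 4. The groups overlapped, with 33.8 ± 2.36 and 36.0 ± 1.72 TPM on average and a log2 fold change of 0.09 (95% confidence interval -0.055 to 0.23, adjusted p = 0.291). The sign turned under median ratio scaling (-0.03) and quantile scaling (-0.03).

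**Figure D2:**
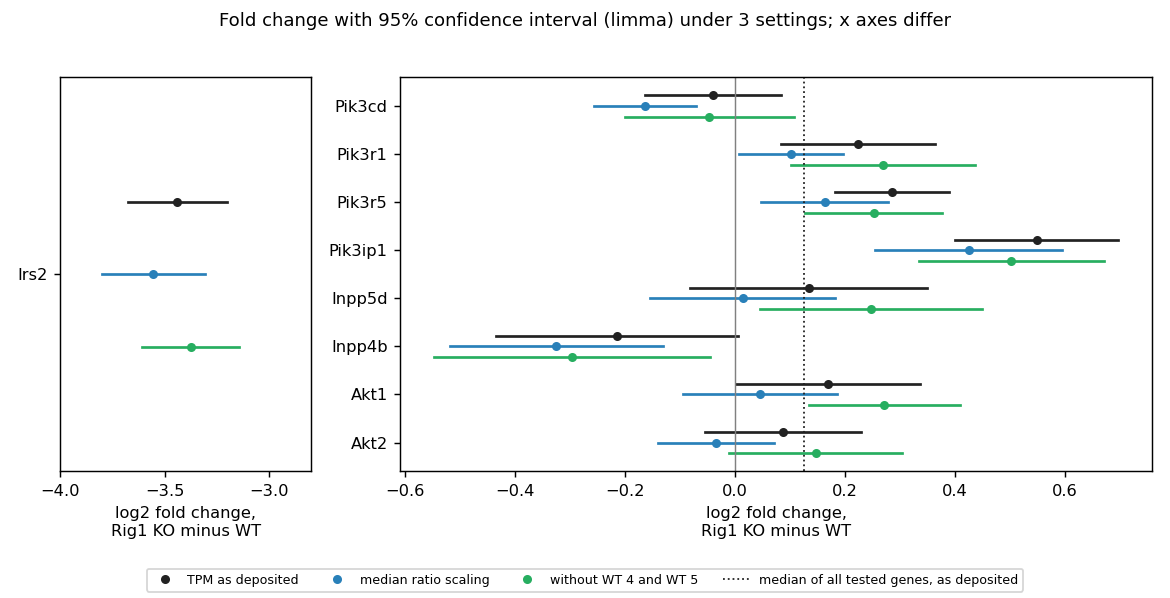
Log2 fold change, Rig1 KO minus WT (x axes, which differ between the panels), of Irs2 (left) and the other 8 genes (right). Points are estimates and lines 95% confidence intervals from limma with TPM as deposited (black), after median ratio scaling (blue) and without WT 4 and WT 5 (green); the dotted line is the median of all tested genes (0.13). The intervals of Irs2, Pik3ip1, Pik3r5 and Pik3r1 stay on 1 side of 0 in all 3 settings, though these intervals are not adjusted for the number of genes.

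Ratios of 2 of these genes within a library, which hardly depend on scaling, were compared for 4 pairs with an exact permutation test, in which 126 arrangements were possible. The smallest p this test can give is 0.00794. The deposited TPM divide by genomic span, so the size of a ratio is not a count of transcripts per transcript. Only differences between libraries are read here. The ratio of Pik3ip1 to Pik3cd was 0.460 to 0.509 in WT and 0.679 to 0.866 in Rig1 KO, so it was higher in every Rig1 KO library. The mean log2 ratio was higher by 0.59 in Rig1 KO (exact permutation p = 0.00794, adjusted p = 0.0317 over the 4 ratios). The ratio of Pik3r1 to Pik3cd was 0.154 to 0.185 in WT and 0.196 to 0.211 in Rig1 KO, again without overlap. The mean log2 ratio was higher by 0.26 (exact permutation p = 0.0159, adjusted p = 0.0317).

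The other 2 ratios did not pass. Inpp4b to Inpp5d was 0.396, 0.335, 0.380, 0.277 and 0.238 in WT 1 to 5 and 0.223 to 0.259 in Rig1 KO. Per exon length Inpp4b was instead above Inpp5d, with WT means of 178 and 122 TPM. The difference in mean log2 ratio was -0.35 (exact permutation p = 0.0714, adjusted p = 0.0952), and WT 4 and WT 5 were the lowest WT libraries. Without them it was -0.54 (exact permutation, adjusted p = 0.0286). Akt2 to Akt1 was 0.481 to 0.561 in WT and 0.463 to 0.499 in Rig1 KO. The difference was -0.08 (exact permutation p = 0.111, adjusted p = 0.111), and -0.12 without WT 4 and WT 5 (exact permutation, adjusted p = 0.0286). With so few libraries 0.0286 is the smallest p this test can give, and all 4 ratios reached it. For both ratios here WT 4 and WT 5 were the WT libraries nearest to Rig1 KO, so leaving them out favours a pass.

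**Figure D3:**
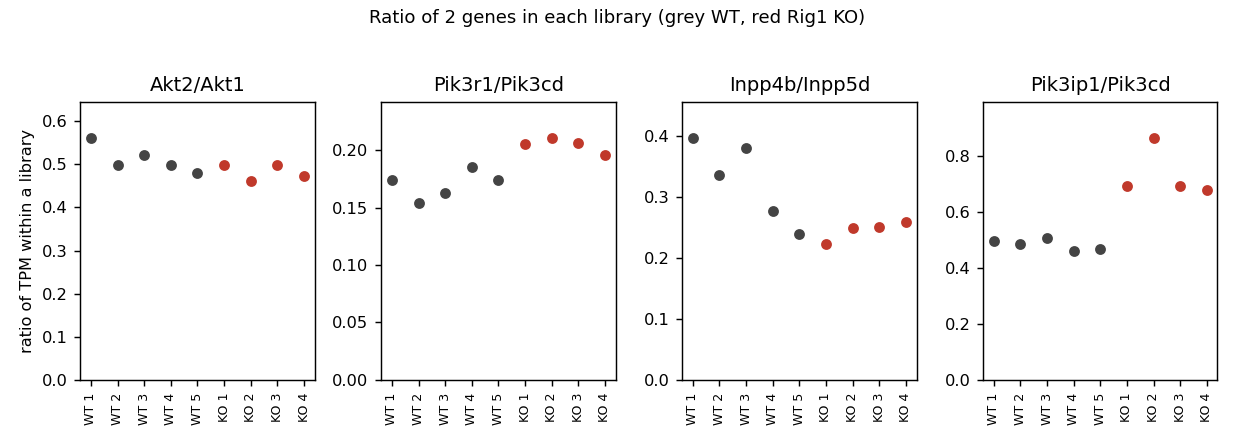
Ratio of the deposited TPM of 2 genes in each library (y axes from 0; x axis, libraries, with KO for Rig1 KO), grey for WT and red for Rig1 KO. The groups are apart for Pik3r1/Pik3cd and Pik3ip1/Pik3cd, and Rig1 KO 2 stands highest for the latter at 0.866. The size of a ratio depends on the genomic spans of its 2 genes, so it is not a ratio of transcript numbers.

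**Figure D4:**
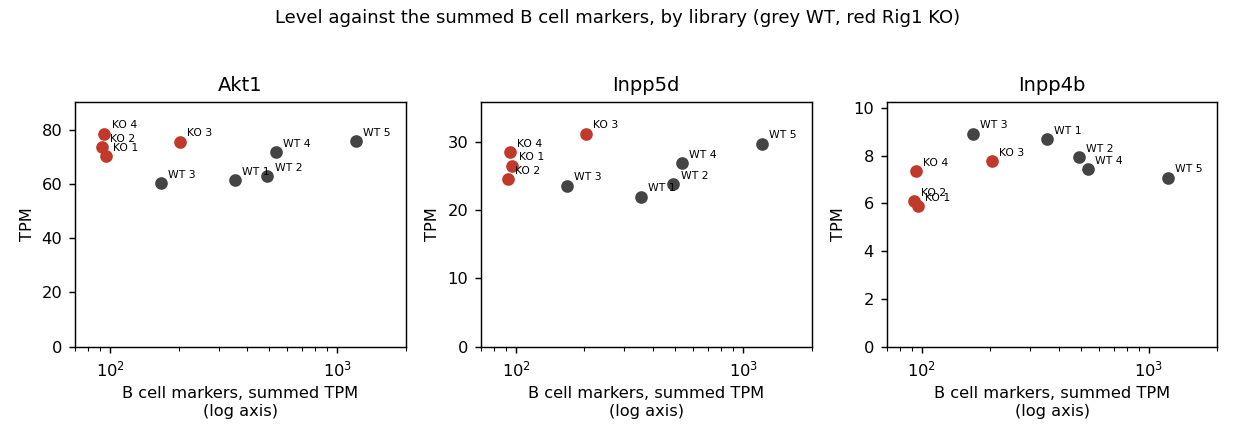
TPM of Akt1, Inpp5d and Inpp4b (y axes from 0) against the summed TPM of 11 B cell markers (x axis, log scale) in each library, grey for WT and red for Rig1 KO (KO). Among the 5 WT libraries, WT 4 and WT 5 are highest in both Akt1 and Inpp5d and lowest in Inpp4b. WT 2 is close to WT 4 in B cell markers (492 and 537 TPM). WT 4 and WT 5 are also the WT libraries highest in summed myeloid, natural killer and CD4+ T cell markers, which are not drawn.

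The deposited TPM divide by the whole genomic span of a gene, which penalises long introns, so levels were compared between genes after dividing the recovered reads by exon length. On that scale Pik3cd was the highest of the 9 in WT at 682 ± 16.7 TPM per exon length (SD, n = 5), followed by Pik3r5 at 267 ± 11.5 and Inpp4b at 178 ± 18.5. Irs2 (134 ± 20.2), Akt1 (126 ± 11.8), Inpp5d (122 ± 14.0), Pik3r1 (118 ± 5.92) and Pik3ip1 (114 ± 6.79) came next. These 5 had overlapping ranges, that of Irs2 also overlapped that of Inpp4b, and Akt2 was lowest at 86.2 ± 5.16, below all of them. In Rig1 KO (n = 4) the order was Pik3cd (647 ± 34.8), Pik3r5 (318 ± 4.33), Pik3ip1 (163 ± 15.6), Inpp4b (146 ± 16.8), Akt1 (137 ± 5.02), Pik3r1 (135 ± 5.45), Inpp5d (131 ± 10.4), Akt2 (89.3 ± 2.20) and Irs2 (10.7 ± 0.804). Neighbours from Pik3ip1 to Inpp5d in that order overlapped, and Irs2 was last, below Akt2 in every Rig1 KO library. Exons are only 1.66% of the span of Inpp4b and 34.0% of that of Pik3ip1, so reads from introns, if counted, would raise Inpp4b most on this scale; whether they were counted is not stated.

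The rest of the pathway was described with 6 lists of 93 symbols, of which 81 were tested. Of these, 21 rose, 15 fell and 45 did not pass, and the 44.4% called in either direction is close to the 45.7% over all tested genes. By direction, 25.9% were higher and 18.5% lower, against 33.5% and 12.2% of all tested genes. With median ratio scaling the split was 12 higher and 25 lower, or 14.8% and 30.9%, against 23.7% and 21.5% of all genes tested there. No test compared the lists with other genes. The median log2 fold change was 0.04 against 0.13 for all tested genes.

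Among receptors and adaptors 2 rose, 1 fell and 8 did not pass of 11 tested, with a median log2 fold change of 0.04, and median ratio scaling gave 2 higher and 2 lower. Socs3, a feedback inhibitor of cytokine receptors that also targets insulin receptor substrates, fell from 327 ± 29.8 to 245 ± 23.2 TPM (adjusted p = 0.00185). The adaptor gene Dok2 rose from 69.2 ± 8.65 to 89.5 ± 8.58 TPM and Gab3, a docking protein gene, from 4.65 ± 0.740 to 6.49 ± 0.871 TPM. Socs1, a relative of Socs3, had 65.6 ± 9.41 and 54.1 ± 5.46 TPM (adjusted p = 0.0676, and 0.0237 after median ratio scaling).

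Other PI3K subunits (3 rose, 1 fell and 5 did not pass of 9; median 0.12) included the class II kinase gene Pik3c2b, which fell from 4.56 ± 2.81 to 1.18 ± 0.366 TPM (adjusted p = 0.00489). Pik3c2a, another class II kinase gene, rose from 8.64 ± 0.766 to 10.9 ± 0.870 TPM and Pik3r2, which encodes p85β, from 30.2 ± 4.25 to 38.2 ± 1.64 TPM. None of the genes that rose was called after median ratio scaling, under which 2 of this list were lower.

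Lipid phosphatases moved both ways (4 rose, 3 fell and 4 did not pass of 11; median 0.11), with 2 higher and 4 lower under median ratio scaling. Inpp4a, the close relative of Inpp4b, rose from 6.51 ± 0.622 to 10.2 ± 0.889 TPM (log2 fold change 0.58, adjusted p = 0.000336), in contrast to the value for Inpp4b. Inppl1, which encodes SHIP2, rose from 6.16 ± 1.64 to 8.90 ± 0.503 TPM and Inpp5k, a 5-phosphatase gene, from 74.6 ± 3.86 to 86.5 ± 5.25 TPM, a call lost after median ratio scaling (adjusted p = 0.124). Ocrl, whose product acts in endosomes, rose from 5.57 ± 0.623 to 7.15 ± 0.957 TPM, also lost after that scaling (adjusted p = 0.0845).

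Regulators of AKT and mTOR (3 rose, 3 fell and 11 did not pass of 17; median 0.07) held the largest fall of the 6 lists. The median ratio split here was 2 higher and 4 lower, with a median of -0.05. Trib1, a pseudokinase gene of the Tribbles family, fell from 36.1 ± 11.2 to 5.03 ± 0.461 TPM (log2 fold change -2.58, adjusted p = 1.53e-06). Trib3, whose product binds AKT, fell from 3.45 ± 0.574 to 1.85 ± 0.925 TPM (adjusted p = 0.0162). Rptor, which encodes the Raptor subunit of mTOR complex 1, rose from 2.37 ± 0.146 to 3.49 ± 0.377 TPM (adjusted p = 0.00301).

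Proteins that bind PIP3 or act just below AKT (5 rose, 1 fell and 10 did not pass of 16; median 0.0016) included the phospholipase gene Plcg1, which had 3.82 ± 0.368 TPM in WT and rose by 0.54 on the log2 scale (adjusted p = 0.00141). Cyth4 rose from 116 ± 4.79 to 143 ± 4.48 TPM while Cyth1 fell from 33.0 ± 1.41 to 27.9 ± 1.22 TPM; both encode cytohesins, exchange factors for ARF GTPases. Gsk3a, a kinase gene whose product AKT inhibits, rose from 130.4 ± 5.74 to 157 ± 10.3 TPM. Median ratio scaling left 3 higher and 4 lower on this list.

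FOXO factors and genes known as their targets changed in both directions (4 rose, 6 fell and 7 did not pass of 17; median -0.12). The 58.8% called compares with 45.7% of all tested genes, and the 35.3% lower with 12.2%. With median ratio scaling 3 were higher and 9 lower, and the 52.9% lower compares with 21.5% of all genes under that scaling. The transcriptional coregulator gene Cited2 fell from 601 ± 47.2 to 249 ± 15.6 TPM (log2 fold change -1.26, adjusted p = 2.84e-07), and the stress gene Gadd45a from 56.8 ± 7.88 to 16.0 ± 2.10 TPM (log2 fold change -1.76). The transcript of Klf2, a quiescence factor, decreased by 0.97 in log2 terms, from 1937 ± 154 to 989.6 ± 50.2 TPM. That of Il7r, the interleukin-7 receptor gene, rose by 1.14, from 274 ± 31.2 to 604 ± 63.0 TPM. The genes of this list respond to many other signals, and the list was chosen with earlier results of these data known. Irs2 and Pik3ip1, which are also known as FOXO targets, moved in opposite directions. Whether FOXO activity differed between the groups was not tested.

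**Figure D5:**
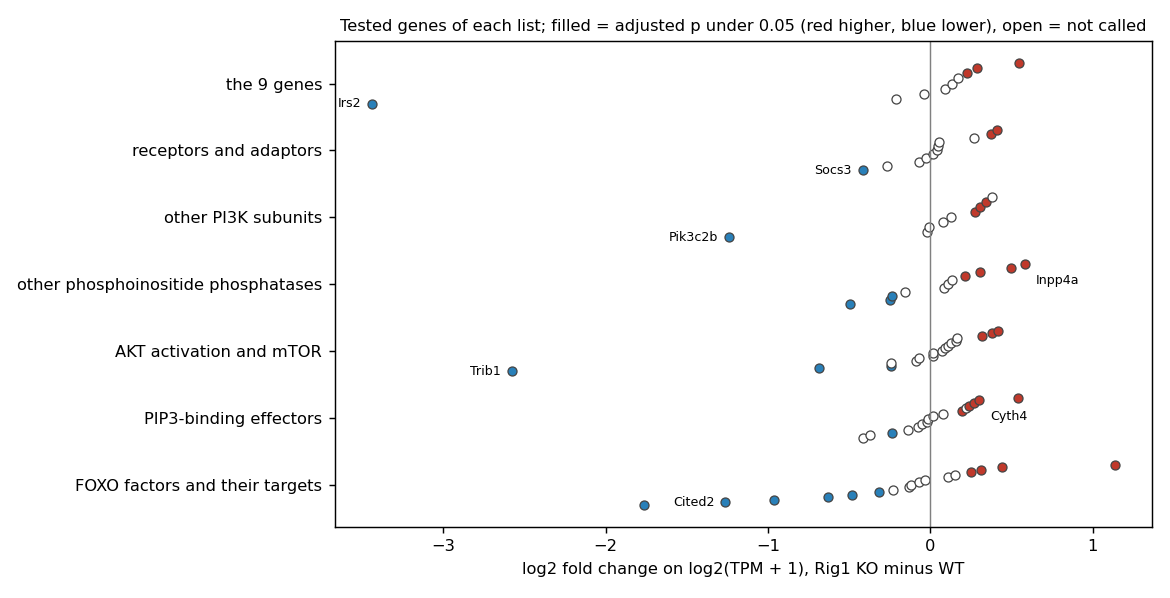
Log2 fold change on log2(TPM + 1), Rig1 KO minus WT (x axis), of each tested gene in the 9-gene group and the 6 pathway lists (y axis). Filled points passed the adjusted p threshold of 0.05 (red higher, blue lower in Rig1 KO), open points did not, and the gene with the smallest p in each list is named. Irs2 (-3.44) and Trib1 (-2.58) lie farthest left.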

How the data were processed

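Poly(A)-selected RNA of splenic CD8+ T cells was sequenced in 5 WT and 4 Rig1 KO libraries, grouped by their titles. The deposited values are TPM, 1 column per library, per the file headers. The submitters' processing notes name fastp, featureCounts and mm39 (GRCm39); versions, aligner, annotation and lengths are not given in the sources used here. Reads behind the TPM were recovered as the smallest whole numbers in the ratios between libraries (relative tolerance 1e-11; 100% of genes), which gives lower bounds where reads share a divisor. The implied lengths were within 1% of the genomic span in GENCODE M21 (GRCm38) for 99.1% of 10549 genes.

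The test was limma 3.58.1 (R 4.3.3) on log2(TPM + 1) of genes with 1 TPM or more in 4 or more libraries (mean-variance trend, no covariates, two-sided, Benjamini-Hochberg adjustment over all 10540 genes, threshold 0.05); every adjusted p-value comes from it where no other test is given. A fold change on this scale understates that of low genes. No set test was run; the lists are described by counts and medians.

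The text names all 9 genes, up to 4 per pathway list with the smallest p, and the 3 profiles most like those of Irs2 and Pik3ip1, leaving out predicted genes and receptor segments. The members and lists were chosen with earlier results of these data known. Alternatives were pseudocounts of 0.1 and 0.5, dropping the filter or raising it to a mean of 5 TPM, median ratio and quantile scaling, exon lengths, a replicate block, a B cell marker covariate, and leaving out each library or WT 4 and WT 5; leaving out Rig1 KO 1 and 2 or 3 and 4, and ratios with no pseudocount, were added after seeing the data. Protein sequences were not used here, and some genes of the lists are not reported by name.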

Additional observations from a re-analysis of the deposited data

Results flagged for a closer look

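Rig1 KO 2 stood apart from the other Rig1 KO libraries in the ratio of Pik3ip1 to Pik3cd. Its log2 ratio was -0.207, against -0.555 to -0.525 in the other 3, and the gap to the nearest was 0.913 of the range of the group, above the critical value of 0.829. Of 28 groups of values examined this was the only one; chance gives about 1 in 20. Rig1 KO 2 also had the highest summed basophil and mast cell markers, and their part in this was not tested.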

How the results depend on the processing

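Irs2, Pik3ip1 and Pik3r5 kept their direction and their call under all 21 alternatives (log2 fold change -3.58 to -3.08, 0.42 to 0.60 and 0.16 to 0.31). The number of the 9 genes called lay between 4 and 6 in these alternatives. After median ratio scaling 3 of them were lower, after quantile scaling 2, with exon lengths 2 and without Rig1 KO 3 and 4 together 3; 5 were higher without WT 4 and WT 5 and 5 with the B cell marker covariate. Leaving out 1 library gave 3 to 4 higher and 1 lower. Among all genes 2266 were lower after median ratio and 2195 after quantile scaling. With the B cell marker covariate 2744 genes changed (2160 higher, 584 lower), and without Rig1 KO 3 and 4 there were 2120 higher. Pathway genes were 12 higher and 25 lower after median ratio and also after quantile scaling, 20 changed (12 higher, 8 lower) with the covariate, and 9 were higher without Rig1 KO 3 and 4. Akt2 turned to -0.0341 after median ratio and -0.0349 after quantile scaling, and Pik3cd to 0.0104 with the covariate and 0.0542 without Rig1 KO 1 and 2.

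In exact permutation tests the ratio differences lay between 0.230 and 0.294 (Pik3r1/Pik3cd), 0.506 and 0.622 (Pik3ip1/Pik3cd), -0.447 and -0.276 (Inpp4b/Inpp5d) and -0.104 and -0.0485 (Akt2/Akt1) when 1 library was left out. The adjusted p of the first 2 was 0.0357 to 0.0571, since fewer libraries allow fewer splits. They were 0.239 and 0.501 without Rig1 KO 1 and 2, and 0.288 and 0.675 without Rig1 KO 3 and 4, where the adjusted p of 0.0952 was limited in the same way. Inpp4b/Inpp5d passed without WT 5 (-0.447, adjusted p = 0.0381). Without WT 4 and WT 5 the last 2 were -0.543 and -0.124 (adjusted p = 0.0286 for both, the smallest p possible with these libraries).

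Libraries share a number between the groups, but nothing says that it marks a common source, and deviations from the group means of same-numbered libraries correlated at -0.0996 to 0.0972. With a replicate block over libraries 1 to 4, 4755 genes changed, 5 of the 9 among them (4 higher, 1 lower) and 35 pathway genes. Akt1 was the additional one (0.22, adjusted p = 0.0208). Depth does not limit the 9 genes, which had at least 225 reads in every library.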
